A study of Mus musculus with 14 samples.

Results

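DNA replication and mitosis genes were followed as a set of 45 genes listed by symbol, all of which were present among the 24980 genes of the dendritic cell table and the 17118 genes of the monocyte and macrophage table. They were read as 22 genes that act from the licensing of origins to the end of DNA synthesis (S phase genes) and 23 genes that act in late S phase, G2 and mitosis (mitotic genes). All 45 passed the filter on low values in both tables. Expression was measured by bulk RNA sequencing of total RNA, after depletion of ribosomal RNA, in 14 libraries, each from a population that was isolated by flow cytometry out of murine marrow.

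The labels give the animals as Cx3Cr1gfp/+ mice, in which GFP replaces 1 allele of the chemokine receptor gene, while the series' design text calls the treated mice wildtype. Dendritic cells were sorted as GFP-high cells high in MHC class II and CD11c that lacked Gr-1 and B220. The animals had received vehicle (4 libraries) or PAM3CSK4 as 1 dose (4 libraries), a lipopeptide agonist of the Toll-like receptor pair TLR1 and TLR2. Monocytes (GFP-high, CD115-positive, B220-negative, with Gr-1 low and high cells together, 3 libraries) and macrophages (GFP-negative, MHC class II-high and CD169-positive, Gr-1-negative and B220-negative, 3 libraries) were labelled baseline. The dose, the time to collection, the age and sex of the mice and whether a library came from 1 mouse or several have not been given in the sources read here. A p-value therefore reflects how much these particular libraries vary, and that variation may be technical.

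In background, a cell that enters S phase has loaded the MCM helicase on its origins, opens them with CDC45 and the GINS complex, and copies DNA with polymerases held by the PCNA clamp, while ribonucleotide reductase and thymidylate synthase supply nucleotides. Genes of this step are classically activated by E2F factors. Mitotic genes rise later under the B-MYB and FOXM1 complexes, which act through CCAAT boxes bound by NF-Y and through the cell cycle homology region (CHR). In marrow, proliferation is a property of progenitors and of young myeloid cells, and falls as dendritic cells and monocytes mature.

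The classes are known for different promoter elements, and 5 promoters are shown because they carry them. RefSeq promoters (build GRCm38.p6) were found for 38 of the 45 genes (19 S phase and 19 mitotic). Kif20a, Mcm4, Ccna2, Ccne2, Tpx2, Gins2 and Aurkb had no entry in that table. The 250 bases before the start were searched on both strands for an E2F element (TTTGGCGC, TTTCCCGC, TTTCGCGC or TTTGCCGC), the CHR (TTTGAA) and the CCAAT box (CCAAT), counting overlapping matches. Capitals mark the matches, which in part lie on the opposite strand. Mcm6 is shown from chr1:128359706-128359955 (minus strand) and Mcm5 from chr8:75109259-75109508 (plus strand), both subunits of the replicative helicase. Top2a, which encodes the topoisomerase that untangles chromosomes, is shown from chr11:99024190-99024439 (minus strand), Cdk1, the mitotic kinase, from chr10:69352913-69353162 (minus strand), and its partner cyclin gene Ccnb2 from chr9:70421555-70421804 (minus strand).
Mcm6: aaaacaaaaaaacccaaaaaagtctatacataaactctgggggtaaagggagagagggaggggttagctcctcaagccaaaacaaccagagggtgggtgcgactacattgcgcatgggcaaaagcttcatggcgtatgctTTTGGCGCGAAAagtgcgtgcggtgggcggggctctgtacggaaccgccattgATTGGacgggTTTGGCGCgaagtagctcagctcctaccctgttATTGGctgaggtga
Mcm5: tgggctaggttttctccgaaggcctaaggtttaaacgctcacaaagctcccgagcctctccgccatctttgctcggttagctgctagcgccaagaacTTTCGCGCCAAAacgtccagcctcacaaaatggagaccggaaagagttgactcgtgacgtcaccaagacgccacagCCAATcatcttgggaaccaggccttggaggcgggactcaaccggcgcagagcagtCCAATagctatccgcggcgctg
Top2a: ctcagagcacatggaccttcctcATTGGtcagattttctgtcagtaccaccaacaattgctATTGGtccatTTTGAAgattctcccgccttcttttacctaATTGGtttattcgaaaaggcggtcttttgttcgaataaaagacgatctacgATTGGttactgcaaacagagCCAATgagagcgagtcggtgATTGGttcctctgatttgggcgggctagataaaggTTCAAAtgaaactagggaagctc
Cdk1: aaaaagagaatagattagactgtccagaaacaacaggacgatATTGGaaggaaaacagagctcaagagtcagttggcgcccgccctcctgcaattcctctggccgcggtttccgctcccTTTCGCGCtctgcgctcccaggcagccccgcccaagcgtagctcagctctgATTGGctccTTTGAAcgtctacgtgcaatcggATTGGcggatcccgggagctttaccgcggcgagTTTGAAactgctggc
Ccnb2: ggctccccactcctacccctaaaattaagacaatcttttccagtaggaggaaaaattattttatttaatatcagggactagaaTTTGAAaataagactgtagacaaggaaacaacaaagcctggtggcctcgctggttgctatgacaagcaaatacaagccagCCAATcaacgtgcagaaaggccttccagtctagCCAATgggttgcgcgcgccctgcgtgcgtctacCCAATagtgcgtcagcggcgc

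Shares are of genes with at least 1 matching promoter, since some genes have several (24 promoters for the 19 S phase and 20 for the 19 mitotic genes). An E2F element stood before 6 of 19 S phase genes (31.6%) and 1 of 19 mitotic genes (5.26%), Cdk1, against 583 of 27025 genes in the whole table (2.16%). The CHR stood before 8 of 19 mitotic genes (42.1%), 3 of 19 S phase genes (15.8%) and 18.3% of all genes. A CCAAT box stood before 16 of 19 mitotic (84.2%) and 11 of 19 S phase genes (57.9%), against 37.5% of all genes, and both elements together before 8 mitotic genes, 2 S phase genes and 6.45% of all genes. With the 50 bases after the start included, 13 of 19 mitotic genes had the CHR (68.4%, against 20.2% of all genes) and 9 of 19 S phase genes had an E2F element (47.4%, against 2.605%). A match is a description of these letters and shows no binding.

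Values are CPM, reads or fragments scaled to a library total and not divided by gene length, so levels of different genes are not compared. Over the listed genes, libraries added up to 350368 to 578711 CPM, and 1 CPM appeared to stand for 28.2 to 75.2 reads or fragments. PAM3CSK4 replicate 4 stood apart from the other dendritic cell libraries: the summed level of 10 dendritic cell markers was 786 CPM there, 4864 to 5908 CPM in the other PAM3CSK4 libraries and 10674 to 13557 CPM with vehicle, and the sum of 10 neutrophil markers was 10173 CPM there against at most 1436 CPM in any other dendritic cell library. Libraries labelled macrophage held 236 to 377 CPM over 9 macrophage markers against 126 to 382 CPM in monocytes, and 2 of the 9 were higher and 1 lower (limma, adjusted p under 0.05).

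The first comparison asks how the genes of replication and division respond to the agonist in dendritic cells. S phase genes were higher after PAM3CSK4: 11 of the 22 rose and 0 fell (limma, adjusted p under 0.05), where 2.82% of all 11377 genes tested rose and 2.29% fell (5.12% either way). The median log2 change was 1.11 over the S phase genes and 0.20 over all genes. Of the 23 mitotic genes 0 passed in limma, with a median log2 change of 0.77, although all 23 estimates were above 0 and 14 had an unadjusted p under 0.05, as did 17.9% of all genes in that direction and 7.06% in the other. Every one of the 45 estimates stayed above 0 in every setting tried, other scalings and any 1 library left out included. In bulk libraries, a larger share of cycling cells and more of these RNAs per cell cannot be told apart. Whether the S phase genes changed more than the mitotic genes was not tested.

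Nucleotide supply held the smallest p of the set. Rrm1, the large subunit of ribonucleotide reductase (chromosome 7, 102441695 to 102469772 in mm10), was at 50.8, 72.9, 84.3 and 80.3 CPM with vehicle and 194, 133, 147 and 223 CPM with PAM3CSK4 replicates 1 to 4. The groups did not overlap, and all 4 treated libraries lay above the highest vehicle library. Its mean rose from 72.1 ± 15.0 to 174 ± 41.9 CPM (SD, n = 4 each), a log2 change of 1.26 ± 0.24 (SE, limma adjusted p = 0.015). The call was lost without vehicle replicate 2 (adjusted p = 0.056) and when genes of low values were kept in the test (adjusted p = 0.11).

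Rrm2, the small subunit whose level limits the enzyme in S phase (chromosome 12, 24708254 to 24714147), was at 28.3, 35.9, 41.1 and 51.0 CPM with vehicle and 105, 64.9, 87.4 and 191 CPM with PAM3CSK4. Replicate 4 was the highest treated library and replicate 2 the lowest, still above all vehicle libraries. The log2 change of 1.41 ± 0.31 was the largest of the 45 (limma adjusted p = 0.026). Tyms, thymidylate synthase, rose from 11.9 ± 1.74 to 28.8 ± 12.1 CPM (log2 change 1.14 ± 0.28, limma adjusted p = 0.041), a call that held only without PAM3CSK4 replicate 2 among the 8 libraries left out in turn. Tk1, the salvage thymidine kinase, had a log2 change of 0.78 ± 0.36 and did not pass (limma adjusted p = 0.20). Its groups overlapped, with 35.4 CPM in vehicle replicate 4 and 20.2 CPM in PAM3CSK4 replicate 2.

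The MCM helicase, the ring that unwinds DNA ahead of the fork, was higher. All 6 subunit genes had log2 changes between 1.10 (Mcm7) and 1.40 (Mcm2), and 4 of the 6 passed: Mcm2, Mcm3, Mcm4 and Mcm6. Mcm4 (chromosome 16, 15623897 to 15637401) was at 30.6, 46.0, 50.3 and 54.3 CPM with vehicle and 94.7, 74.8, 101 and 135 CPM with PAM3CSK4, with no overlap (log2 change 1.14 ± 0.25, limma adjusted p = 0.024). Mcm2 (chromosome 6, 88883474 to 88898781) was at 28.8, 37.3, 32.8 and 57.9 CPM against 87.4, 62.4, 112 and 174 CPM (log2 change 1.40 ± 0.32, limma adjusted p = 0.028). In both genes vehicle replicate 4 was the highest vehicle library and came nearest to PAM3CSK4 replicate 2. Mcm3 was at 41.1, 64.8, 53.7 and 75.2 CPM against 118, 97.7, 130 and 198 CPM (log2 change 1.18 ± 0.27, limma adjusted p = 0.027). Mcm6 was at 38.2, 75.4, 83.1 and 80.6 CPM against 141, 105, 146 and 221 CPM (log2 change 1.15 ± 0.30, limma adjusted p = 0.047). Neither overlapped between groups. Mcm5 and Mcm7 had adjusted p of 0.051 and 0.074 in limma. Mcm5 overlapped between groups in 1 pair of libraries (55.9 CPM in vehicle replicate 4, 53.3 in PAM3CSK4 replicate 2). The Mcm6 call was lost in 12 of 16 settings.

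Genes of the set whose products load or start the helicase did not pass. Cdc6 and Cdt1, the licensing factors that bring MCM to origins, had log2 changes of 0.90 ± 0.30 and 0.97 ± 0.34 (limma adjusted p = 0.099 and 0.11). Cdc45 and Gins2, which turn the loaded MCM ring into an active helicase, had 1.14 ± 0.32 and 1.11 ± 0.35 (limma adjusted p = 0.060 and 0.083). Cdc45 did not overlap between groups, with 5.51 to 12.8 CPM against 14.3 to 36.5 CPM. Ccne1 was at 5.84, 4.69, 4.65 and 6.25 CPM with vehicle and 11.4, 6.48, 11.9 and 25.8 CPM with PAM3CSK4, with no overlap and replicate 4 far above the rest. Ccne1 and Ccne2, the E-type cyclins that drive entry into S phase, had 1.08 ± 0.34 and 0.83 ± 0.29, neither past the threshold (limma adjusted p = 0.083 and 0.11).

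At the fork, 4 of 6 genes rose. Pcna, the sliding clamp (chromosome 2, 132249286 to 132253181), was at 43.6, 57.8, 49.4 and 52.2 CPM with vehicle and 96.9, 88.5, 87.0 and 104 CPM with PAM3CSK4. The groups did not overlap, and the log2 change was 0.88 ± 0.19 (limma adjusted p = 0.024). It is the 1 called gene that passed under all 8 settings other than a library left out, while 5 of the 8 libraries left out took its adjusted p to between 0.052 and 0.062. Lig1, the ligase that joins Okazaki fragments, was at 14.9, 26.3, 14.1 and 31.8 CPM with vehicle and 59.4, 34.2, 57.6 and 80.0 CPM with PAM3CSK4, again with replicate 2 lowest and no overlap. It rose from 21.8 ± 8.68 to 57.8 ± 18.7 CPM (log2 change 1.39 ± 0.32, limma adjusted p = 0.030). Rfc4, of the clamp loader, and Fen1, the flap nuclease, rose by 0.91 ± 0.23 and 0.86 ± 0.23 on the log2 scale (limma adjusted p = 0.042 and 0.0496), and both calls were lost with any 1 library left out. Pola1, the catalytic subunit of the priming polymerase, and Uhrf1, which carries maintenance methylation to new DNA, did not pass (0.75 ± 0.21 and 0.93 ± 0.29). Rfc4 and Lig1, like 10 others of the 45, overlap another listed gene, and whether reads were counted by strand is unknown from the labels.

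**Figure D1:**
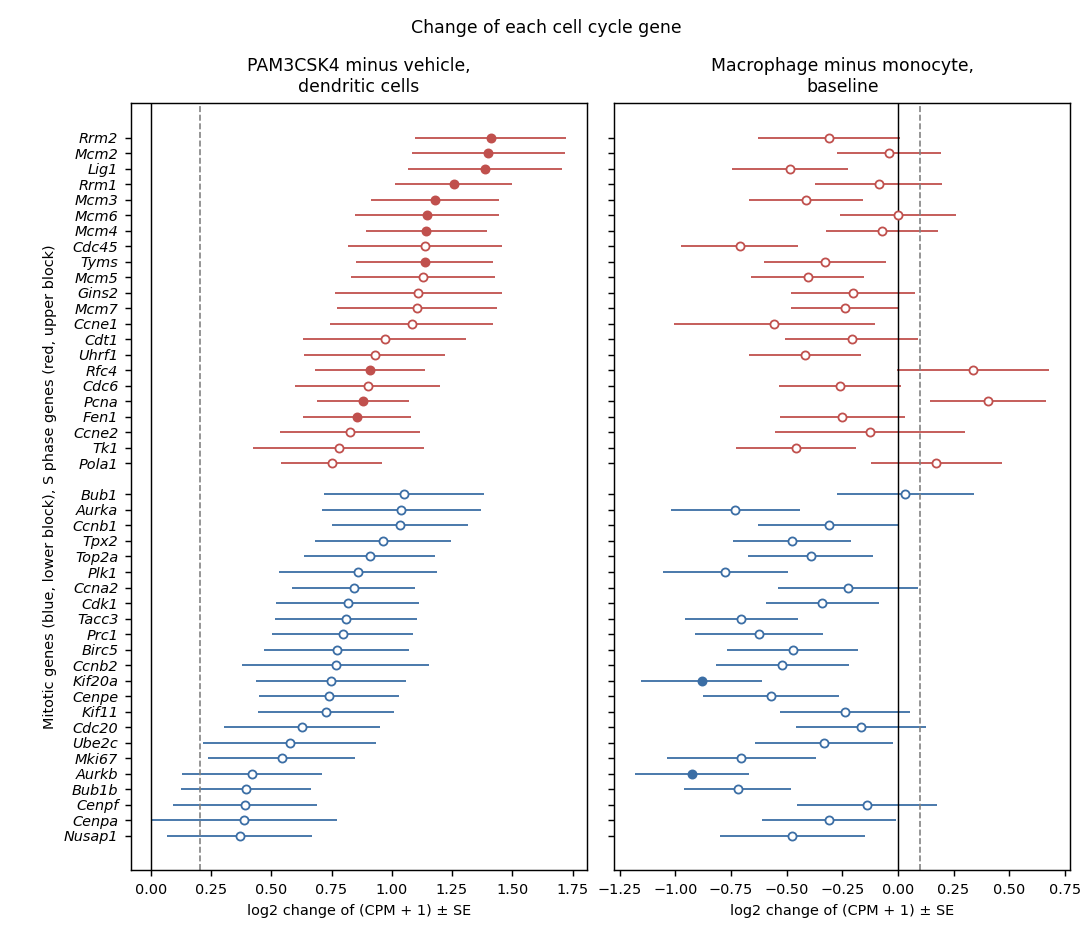
Log2 change of each gene on the log2(CPM + 1) scale (horizontal axis, point) with its standard error (bar), for dendritic cells after PAM3CSK4 against vehicle (left) and macrophages against monocytes (right). S phase genes are red and mitotic genes blue, filled points passed an adjusted p of 0.05 in limma (11 red on the left, 2 blue on the right), and the dashed line is the median of all genes tested (0.20 and 0.10).

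Mitotic genes were higher on average but spread widely among the treated libraries. Ccnb1 came nearest to the threshold, followed by Tpx2 and Top2a. Ccnb1, cyclin B1 (chromosome 13, 100778739 to 100786487), was at 20.5, 27.7, 33.0 and 30.1 CPM with vehicle and 82.5, 37.0, 46.1 and 75.5 CPM with PAM3CSK4 (log2 change 1.03 ± 0.28, limma adjusted p = 0.055). Its groups did not overlap. Ccna2, cyclin A2, was at 57.4, 66.3, 74.3 and 76.5 CPM against 174, 79.7, 112 and 148 CPM, where replicate 2 lay just above the vehicle range. Ccna2 had 0.84 ± 0.26 and Cdk1 0.82 ± 0.30. Cdk1 overlapped between groups, with 34.2 CPM in PAM3CSK4 replicate 2 inside the vehicle range of 23.8 to 42.1 CPM.

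Top2a (chromosome 11, 98992947 to 99024190) was at 210, 302, 301 and 299 CPM with vehicle and 842, 390, 432 and 502 CPM with PAM3CSK4 (log2 change 0.91 ± 0.27, limma adjusted p = 0.075). Mki67, the proliferation antigen that coats mitotic chromosomes (chromosome 7, 135689788 to 135716380), was at 698, 806, 912 and 746 CPM with vehicle and 1995, 817, 858 and 1237 CPM with PAM3CSK4. Treated replicates 2 and 3 lay inside the vehicle range and replicate 1 lay far above it, so that its log2 change was 0.54 ± 0.30 (limma adjusted p = 0.29). Kif11, the motor that pushes spindle poles apart, showed the same weight of 1 library, at 85.8, 93.2, 96.0 and 98.4 CPM against 287, 107, 127 and 148 CPM. Ccnb2 was at 24.2, 27.4, 35.4 and 42.9 CPM against 122, 25.8, 46.5 and 60.2 CPM, with replicate 2 inside the vehicle range.

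Among the kinases, the estimates were 1.04 ± 0.33 for Aurka, which builds the spindle poles, and 0.86 ± 0.33 for Plk1, but 0.42 ± 0.29 for Aurkb and 0.77 ± 0.30 for Birc5 (survivin), which work together in the chromosomal passenger complex. The spindle checkpoint kinase Bub1 had 1.05 ± 0.33 and its relative Bub1b 0.39 ± 0.27. Cdc20 and Ube2c, which activate the anaphase-promoting complex and feed it ubiquitin, had 0.63 ± 0.32 and 0.58 ± 0.36. The centromere genes were the lowest group: Cenpa had 0.39 ± 0.38, Cenpf 0.39 ± 0.30 and the motor gene Cenpe 0.74 ± 0.29. The spindle genes Tpx2, Tacc3, Prc1, Kif20a, Kif11 and Nusap1 ran from 0.96 to 0.37 in that order, and none of the genes in this paragraph passed in limma.

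**Figure D2:**
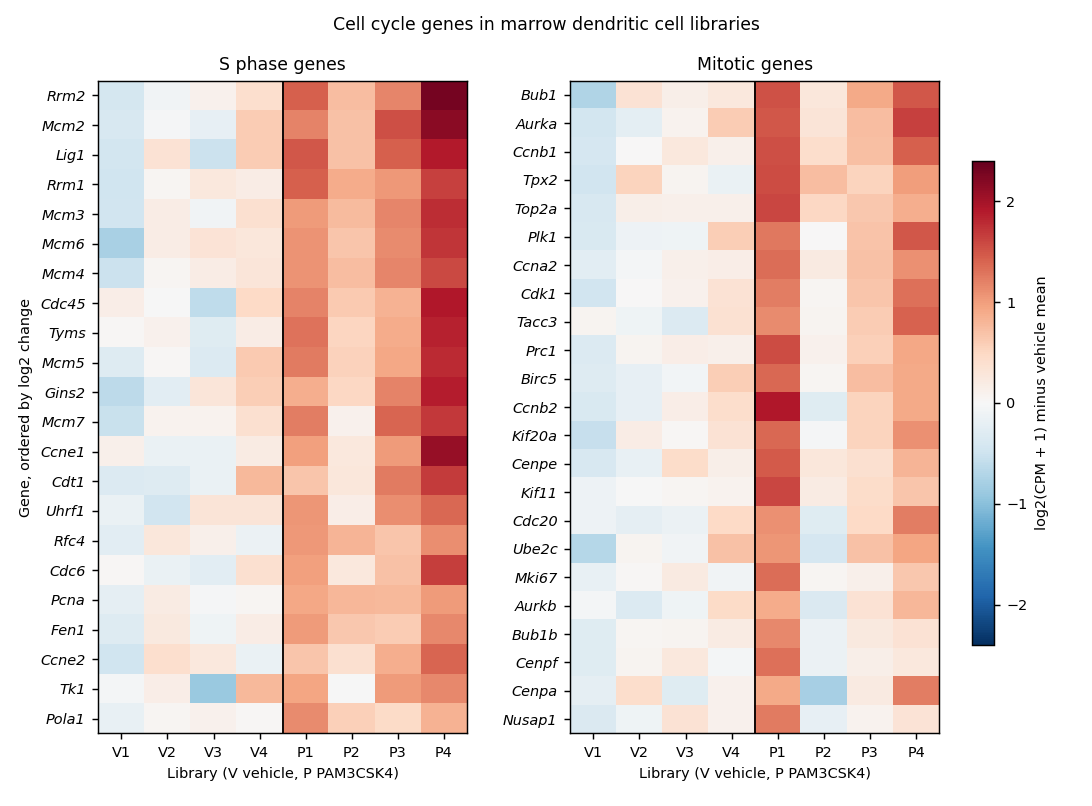
Each cell is log2(CPM + 1) of 1 gene (row) in 1 dendritic cell library (column) minus the mean of the 4 vehicle libraries, red above and blue below it, with S phase genes left and mitotic genes right. In the S phase panel PAM3CSK4 replicate 4 is darkest (highest of the treated libraries in 21 of 22 genes), and in the mitotic panel replicate 1 is (17 of 23), while replicate 2 is palest (lowest in 40 of 45).

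The treated libraries fell into an order that differed between the classes. PAM3CSK4 replicate 4 was the highest treated library for 21 of 22 S phase genes, and replicate 1 for 17 of 23 mitotic genes. Replicate 2 was the lowest for 18 of 22 and 22 of 23. Replicate 2 lay above the highest vehicle library for 14 of 22 S phase genes but only 5 of 23 mitotic genes, and below the lowest vehicle library for 3 mitotic genes. The groups as wholes did not overlap for 14 of 22 S phase and 4 of 23 mitotic genes, against 10.1% of all genes higher in that way and 4.68% lower.

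The mean log2(CPM + 1) of the 22 S phase genes was 4.11, 4.45, 4.34 and 4.74 in vehicle replicates 1 to 4 and 5.50, 4.94, 5.43 and 6.03 in PAM3CSK4 replicates 1 to 4, with no overlap. That of the 23 mitotic genes was 5.13, 5.47, 5.52 and 5.72 against 6.81, 5.49, 5.98 and 6.45, where replicate 2 lay inside the vehicle range. The S phase mean minus the mitotic mean was −1.19 to −0.98 with vehicle. It was −0.55, −0.55 and −0.42 in PAM3CSK4 replicates 2, 3 and 4 and −1.31 in replicate 1. Replicate 1 was high in both classes with a difference below all vehicle libraries, and the other 3 treated libraries had a difference above all of them.

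**Figure D3:**
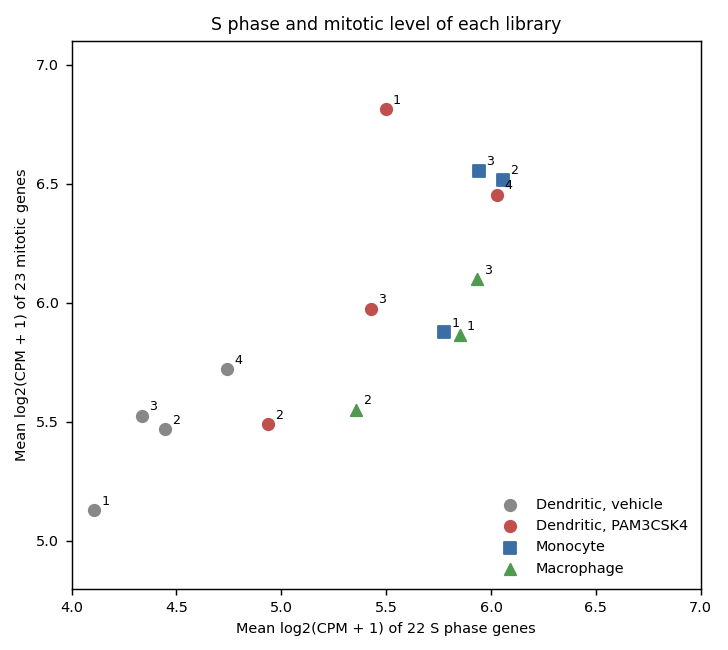
Mean log2(CPM + 1) of the 22 S phase genes (horizontal) and the 23 mitotic genes (vertical) in each library, numbered by replicate. Vehicle dendritic cells lie at 4.11 to 4.74 on the horizontal axis and PAM3CSK4 libraries at 4.94 to 6.03, with replicate 1 highest of all on the vertical axis (6.81). Monocytes and macrophages come from a table made separately.

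The number of S phase genes called moved with single libraries. It was 1, 0, 1 and 7 of 22 without vehicle replicates 1, 2, 3 and 4, and 7, 13, 1 and 7 without PAM3CSK4 replicates 1, 2, 3 and 4. Calls over all genes moved too: rises made up 0.494%, 0.657%, 0.830% and 1.09% of genes tested without the vehicle replicates in turn, and 5.53%, 2.20%, 0.817% and 4.03% without the PAM3CSK4 replicates. In the 4 settings that left at most 1 S phase call, the S phase median log2 change was 0.92, 1.08, 1.03 and 1.09 (without vehicle replicates 1, 2 and 3 and PAM3CSK4 replicate 3). The number of mitotic genes called was 0 with any library left out except PAM3CSK4 replicate 2, without which 5 rose (Cdk1, Ccna2, Ccnb1, Aurka and Bub1). Without PAM3CSK4 replicate 4, which stood apart, the median log2 change was 0.87 for S phase and 0.65 for mitotic genes, and without replicate 1 it was 1.09 and 0.54. With no filter on low values 1 S phase gene passed, Pcna, of 24980 genes tested. After median centring and quantile normalization, which take the median change of all genes from 0.20 to −0.02 and 0.02, 7 and 6 S phase genes passed and their medians were 0.89 and 0.92.

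Markers of other cells differed among the treated libraries. The sum of 12 erythroid markers was 44.8, 40.6, 31.2 and 216 CPM with vehicle and 95.9, 371, 261 and 1147 CPM with PAM3CSK4. That of 10 neutrophil markers was 351, 575, 600 and 630 CPM against 499, 1436, 1265 and 10173 CPM. The sum of 10 progenitor markers was 342, 320, 251 and 549 CPM with vehicle and 247, 201, 174 and 2433 CPM with PAM3CSK4. Of the 9 progenitor markers tested, 5 estimates were above 0 and 4 below, and 0 passed in limma. Of the other markers tested, 3 of 9 erythroid, 1 of 9 neutrophil and 3 of 7 plasmacytoid dendritic cell markers rose and 0 fell. Of dendritic cell, monocyte and macrophage markers 4 of 10, 3 of 9 and 2 of 9 fell and 0 rose (limma, adjusted p under 0.05). Among all genes tested 2.82% rose and 2.29% fell. The 7 plasmacytoid dendritic cell markers summed to 56.5 to 112 CPM with vehicle and 384, 141, 516 and 81.1 CPM with PAM3CSK4. The 9 macrophage markers summed to 675 to 1097 CPM with vehicle and 298, 1722, 684 and 262 CPM with PAM3CSK4, highest in replicate 2, the lowest treated library for 40 of the 45 genes. PAM3CSK4 replicate 4, the highest in S phase genes, was highest in erythroid, neutrophil and progenitor markers. Vehicle replicate 4 was the highest vehicle library in the same sums, and for 15 of 22 S phase and 13 of 23 mitotic genes. PAM3CSK4 replicate 1, the highest in mitotic genes, was lowest of the treated libraries in erythroid and neutrophil markers, and replicate 2 was second to replicate 4 in both. At most 1 marker of each of these lists was at the lowest listed value (no reads) in any dendritic cell library. The part of these cells in the changes was not tested.

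Genes of the same pathways outside the set are given next, where 2.82% of all 11377 genes tested rose and 2.29% fell. Among other origin licensing and firing genes 5 of 16 rose and 0 fell, among them Cdc7, the kinase that fires origins (4.80 ± 0.92 to 13.6 ± 4.46 CPM, log2 change 1.29 ± 0.27, limma adjusted p = 0.020), and Mcm10. Among other polymerase, clamp loader and fork genes 5 of 21 rose, among them Prim1, the primase (1.11 ± 0.23), Rfc5 and Prim2. Of 14 checkpoint and recombination repair genes 5 rose, including Brca1 (1.14 ± 0.24). Of 34 other spindle, kinetochore and cytokinesis genes 1 rose, near the share of all genes. It was Ect2, the exchange factor of cytokinesis (0.97 ± 0.24). Of 13 condensin and cohesin genes 1 rose, Smc2. No gene of these 5 lists fell. Their median log2 changes were 0.81, 0.81, 0.98, 0.68 and 0.55 in that order.

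Regulators upstream included single rises, where 2.82% of all genes tested rose and 2.29% fell. Ccnd2, a D-type cyclin that starts the exit from G1, was at 18.8, 38.4, 29.9 and 38.0 CPM with vehicle and 46.5, 93.0, 142 and 115 CPM with PAM3CSK4, with no overlap (log2 change 1.57 ± 0.34, limma adjusted p = 0.024). Its partner kinase gene Cdk4 rose by 1.14 ± 0.30 on the log2 scale (limma adjusted p = 0.048). These were the 2 rises among 11 measured G1 cyclin, kinase and inhibitor genes. Of 20 E2F, RB and MYB-MuvB genes 1 rose, a count near the share of all genes: E2f3 (1.33 ± 0.33). Mybl2, which encodes B-MYB, did not pass (1.07 ± 0.37, limma adjusted p = 0.11). Of 13 p53 targets and antiproliferative genes 0 rose and 2 fell, Btg2 and Btg1. Btg2 went from 200 ± 29.7 to 78.6 ± 16.2 CPM (log2 change −1.35 ± 0.23, limma adjusted p = 0.0079), with 168 to 232 CPM in the vehicle and 54.9 to 89.9 CPM in the treated libraries.

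The second comparison asks how macrophages and monocytes differ at baseline. Few genes of the set differed: 0 of 22 S phase genes passed in limma and 2 of 23 mitotic genes were lower in macrophages, where 7.42% of all 12188 genes tested were lower and 12.8% higher, so that the mitotic share is near the background. At an unadjusted p under 0.05, 1 S phase and 6 mitotic genes were lower and 0 of the 45 were higher, against 11.8% of all genes lower and 19.1% higher. The median log2 change was −0.24 for S phase and −0.47 for mitotic genes, against 0.10 for all genes. The groups did not overlap for 2 S phase and 6 mitotic genes lower in macrophages, where 13.8% of all genes lay so and 20.4% lay the other way.

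The 2 called genes were Aurkb and Kif20a. Aurkb, the kinase of the chromosomal passenger complex (chromosome 11, 69045637 to 69051665), was at 58.6, 56.0 and 85.6 CPM in monocytes and 36.7, 28.7 and 37.4 CPM in macrophages. All 3 macrophage libraries lay below all monocyte libraries, and the log2 change was −0.93 ± 0.26 (limma adjusted p = 0.023). Kif20a, a kinesin of the central spindle, fell from 71.5 ± 17.7 to 38.0 ± 7.70 CPM (SD, n = 3 each), with a log2 change of −0.88 ± 0.27 (limma adjusted p = 0.039). Without monocyte replicate 3, macrophage replicate 1 or macrophage replicate 2, 0 mitotic genes passed. Kif20a was also lost without monocyte replicate 2 (adjusted p = 0.066), and without monocyte replicate 1 the count was 5.

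Bub1b, Tacc3, Plk1 and Aurka also did not overlap between the populations, with log2 changes of −0.72 ± 0.24, −0.70 ± 0.25, −0.77 ± 0.28 and −0.73 ± 0.29 that did not pass (limma adjusted p = 0.056 to 0.10). Mki67 was at 876, 1687 and 1505 CPM in monocytes and 801, 647 and 993 CPM in macrophages, and monocyte replicate 1 lay inside the macrophage range. Top2a was at 367, 625 and 490 CPM against 412, 308 and 392 CPM. Among mitotic genes monocyte replicate 1 was the lowest monocyte library for 20 of 23, and macrophage replicate 2 the lowest macrophage library for 22 of 23.

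Among the S phase genes, Cdc45 came first, at 29.6, 36.6 and 35.9 CPM in monocytes and 23.1, 15.4 and 23.4 CPM in macrophages (log2 change −0.71 ± 0.26, limma adjusted p = 0.079), without overlap. Pcna was at 70.8, 113 and 76.1 CPM in monocytes and 123, 91.9 and 126 CPM in macrophages, with overlap. Pcna had an estimate of 0.40 ± 0.26, Rfc4 of 0.34 ± 0.34 and Pola1 of 0.17 ± 0.30, with those of Mcm6 and Bub1 near 0 (0.00 and 0.03), and the other 40 of the 45 estimates were below 0. That balance depended on scaling and on single libraries: 34 of the 45 were below 0 after rescaling to a common total or quantile normalization, 42 after median centring, 34 without monocyte replicate 2 and 35 without macrophage replicate 2.

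Around the set, some regulators of the cycle were lower in macrophages, where 7.42% of all genes tested were lower and 12.8% higher. Of 20 E2F, RB and MYB-MuvB genes 3 fell: E2f2 (139 ± 46.1 to 51.9 ± 28.7 CPM, log2 change −1.49 ± 0.37, limma adjusted p = 0.013), E2f8 (−0.95 ± 0.25) and Foxm1 (−1.04 ± 0.28, limma adjusted p = 0.019). Foxm1, the transcription factor of mitotic genes, was at 92.1, 72.0 and 137 CPM in monocytes and 54.6, 39.2 and 47.7 CPM in macrophages, without overlap. Of 34 other spindle, kinetochore and cytokinesis genes 4 fell, a count near the share of all genes. They were the cytokinesis genes Racgap1 (−1.24 ± 0.28) and Kif23 (−1.03 ± 0.24), then Incenp and Dlgap5. Of the 16 origin, 21 polymerase and fork, 13 condensin and 14 repair genes 0 passed in limma, while 3, 1, 1 and 0 were lower and 2, 0, 0 and 2 higher at an unadjusted p under 0.05. Ccnd2 was higher in macrophages (81.1 ± 29.7 against 237 ± 66.8 CPM, log2 change 1.56 ± 0.32, limma adjusted p = 0.0044), and the inhibitor gene Cdkn2d was lower (−1.10 ± 0.29). They were the 1 higher and 1 lower of 11 G1 cyclin, kinase and inhibitor genes tested, near the shares of all genes.

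Markers of other cells differed between these populations as well. The 12 erythroid markers summed to 13.3 to 80.0 CPM in monocytes and 243 to 926 CPM in macrophages, and the 10 plasma cell and B cell markers to 10.2 to 21.3 CPM and 487 to 7955 CPM. The 8 NK and T cell markers summed to 11.1 to 24.7 CPM and 251 to 452 CPM (7 of 8 higher, limma), and the 10 neutrophil markers to 242 to 540 CPM and 885 to 2801 CPM (7 of 9 tested higher and 1 lower). The 10 progenitor markers were split, with 4 higher and 4 lower in macrophages (limma, adjusted p under 0.05). Their sum, 2612 to 3476 CPM in monocytes and 1317 to 2777 CPM in macrophages, was mostly Mpo (2210 ± 407 against 738 ± 253 CPM). The 4 higher markers, named after their values were seen, were Hlf (2.67 ± 1.60 against 168 ± 86.7 CPM), Kit, Gata2 and Mecom. Their part in the levels of the cell cycle genes was not tested.

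**Figure D4:**
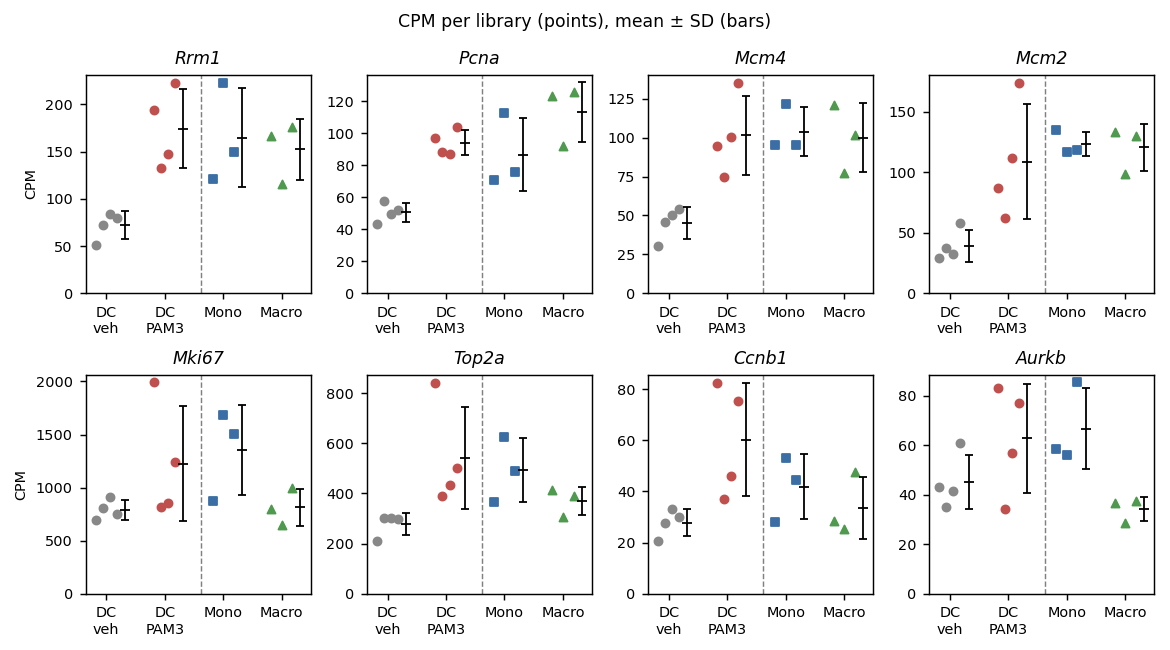
CPM (vertical axis, from 0) of 4 S phase genes (upper row) and 4 mitotic genes (lower row) in each library (points), with mean ± SD beside them, for dendritic cells with vehicle (DC veh) and PAM3CSK4 (DC PAM3), monocytes (Mono) and macrophages (Macro). The dashed line separates the 2 tables. Vehicle dendritic cells lie lowest for Rrm1, Pcna, Mcm4, Mcm2 and Top2a, and the treated libraries overlap those of monocytes.

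Set side by side, vehicle dendritic cells were the lowest population for S phase genes. The 2 tables were made separately, so these levels were not tested against each other, and 3 further columns of the second table were not used. All vehicle libraries lay below all monocyte libraries for 21 of 22 S phase genes and below all macrophage libraries for 18 of 22. For mitotic genes these counts were 10 and 6 of 23. The share of all genes that lay so was not computed, so these counts have no background. Listed totals also differed, with 350368 to 482656 CPM in vehicle libraries, 515931 to 578711 CPM in monocytes and 416945 to 542012 CPM in macrophages. The ratio of the monocyte mean to the vehicle mean had a median of 2.77 over the S phase genes (1.70 to 7.78) and 1.64 over the mitotic genes (1.03 to 5.34). After PAM3CSK4 the same ratios had medians of 1.22 and 0.93.

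Single genes show the order. Mcm2 was at 39.2 ± 12.9 CPM in vehicle dendritic cells, 109 ± 47.7 CPM after PAM3CSK4, 123 ± 10.0 CPM in monocytes and 121 ± 19.1 CPM in macrophages. The monocyte and macrophage means lay inside the range of the PAM3CSK4 libraries (62.4 to 174 CPM). Mki67 had another order, at 791 ± 92.1, 1227 ± 546, 1356 ± 426 and 814 ± 173 CPM, where vehicle dendritic cells and macrophages differed by less than their spread. For 4 of the 23 mitotic genes, and for 0 of the S phase genes, the vehicle mean lay above the macrophage mean.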

How the data were processed

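The authors deposited a table for dendritic cells and another for monocytes and macrophages. Their values, although named FPKM, behaved as CPM (deposited values in a library were near whole multiples of 1 step whatever the gene length), with 0.0001 added to each. Per the submitters' processing notes, mm10, STAR 2.5.3a and Partek were used, with roles not given, and neither the annotation nor the strand setting is given there. Too few values were whole multiples (65.9% to 90.5% of low values within 0.05 steps) for a test on counts. Of the second table, 3 columns whose names match no single sample were not used.

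Values were tested as log2(CPM + 1) with limma 3.58.1 in R 4.3.3 (trend, two-sided), on genes that reached 1 CPM in a number of libraries no smaller than the size of the smaller group. All tested genes entered the Benjamini-Hochberg adjustment, and calls were made under 0.05. Fold changes on this scale understate those of low genes. The fit was also run on simulated data in which each gene varied independently, so shifts shared by the genes of a library were not covered. Alternatives were other pseudocounts, filters and scalings, a replicate block and each library left out. Every gene of the set could be named, as could up to 4 genes of each other pathway list in order of p. The genes and lists were chosen with earlier results of these data known. Promoters came from RefSeq (GRCm38.p6), and gene coordinates are those of the files (mm10).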

Additional observations from a re-analysis of the deposited data

Results flagged for a closer look

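In 4 of 94 groups of 4 dendritic cell libraries, 1 library lay far from the other 3 of its group, its gap divided by the group's range exceeding Dixon's 95% critical value. Chance gives about 1 in 20 such groups. All 4 were vehicle libraries. Mcm6 was at 38.2 CPM in vehicle replicate 1, against 75.4 to 83.1 CPM in the other vehicle libraries, and Top2a at 210 CPM there, against 299 to 302 CPM. Cdt1 was at 30.4 CPM in vehicle replicate 4, against 13.6 to 15.5 CPM, and Cdc20 at 45.0 CPM there, against 27.6 to 29.5 CPM. Replicate 1 was the lowest vehicle library for 33 of the 45 genes and had a listed total of 350368 CPM, against 464918 to 482656 CPM in the others. Replicate 4 was the highest for 28 of the 45.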

How the results depend on the processing

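In dendritic cells all 45 estimates kept their direction in every alternative that gave a value, while the counts of calls moved. S phase genes called numbered 1 with no filter, 7 after median centring, 6 after quantile normalization and 0 to 13 with 1 library left out. Mitotic genes called numbered 0 to 5 with 1 library left out. All genes called numbered 582, but 32 with no filter and 184 to 1008 with 1 library left out. Of all calls 55.2% were rises, against 41.4%, 29.9% and 35.1% after rescaling to a common total, median centring and quantile normalization. With the replicate number as a block, 18 S phase, 1 mitotic and 976 genes were called in dendritic cells, and 3 mitotic genes in macrophages. Libraries of the same number had correlations of 0.03, 0.29, −0.12 and 0.30 in dendritic cells, where not every library correlated best with its own number, and of 0.18, 0.08 and 0.12 in monocytes and macrophages, where every one did. As not every correlation was over 0.1 in either comparison and no label ties the numbers, the fit without the block was kept. In macrophages the block added Plk1 (limma adjusted p = 0.039). In macrophages against monocytes, mitotic calls numbered 1 with no filter, 1 after rescaling to a common total, 5 after median centring, 1 after quantile normalization and 0 to 5 with 1 library left out. S phase calls there numbered 1 after median centring, 1 after quantile normalization and 0 to 1 with 1 library left out. With the window of 300 bases, 68.4% of mitotic genes had the CHR and 68.4% the CHR with a CCAAT box, and of all genes 2.605% held an E2F element, 20.2% the CHR, 41.1% a CCAAT box and 7.97% both.

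Log2 changes of 14 genes between macrophages and monocytes reversed in some setting; the cause was not tested. After rescaling to a common total they were 0.13 for Mcm2, 0.10 for Mcm4, 0.089 for Rrm1, 0.039 for Ccne2, 0.0048 for Cdc20 and 0.035 for Cenpf. Median centring gave −0.12 for Mcm6 and −0.088 for Bub1. Quantile normalization gave 0.20 for Mcm2, 0.13 for Mcm4, 0.018 for Mcm7, 0.17 for Rrm1, 0.066 for Cenpf and 0.0095 for Kif11. With 1 library left out, the ranges were −0.12 to 0.10 for Mcm2, −0.22 to 0.10 for Mcm4, −0.28 to 0.15 for Rrm1, −0.55 to 0.39 for Ccne2, −0.39 to 0.090 for Cdc20, −0.50 to 0.14 for Cenpf, −0.15 to 0.17 for Mcm6 and −0.25 to 0.36 for Bub1. They were −0.54 to 0.00069 for Kif11, −0.025 to 0.48 for Pola1, −0.52 to 0.021 for Ccna2, −0.45 to 0.017 for Cdt1 and −0.40 to 0.027 for Fen1.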
